A study of Danio rerio with 10 samples.

Results

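The 6 genes described here were listed as maternal genes of the opening events of zebrafish development. These events run from the fusion of the parental chromosomes to the import of proteins into the nucleus. The 6 are bmb, birc5b, mid1ip1l, trim36, kpna7 and racgap1, listed by name, and earlier results of these data were known when they were chosen. A maternal role in zebrafish was taken from the list and was not tested for any of them. All 6 of the 6 were found among the 32574 gene identifiers of the expression table. The study sequenced polyadenylated RNA, selected from total RNA of Danio rerio, at 10 points, with 1 library for each. Sperm and oocytes were sequenced, then embryos counted at 1, 4, 16, 64, 128, 256 and 1000 cells, and last the blastula at sphere stage. The labels name no strain, treatment or animal, and they do not say how many gametes or embryos were pooled. With 1 library per stage there is no replicate check on any difference between stages. Values are RPKM, reads per kilobase of gene length scaled to the size of the library, which allows levels to be set side by side between genes.

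A zebrafish egg is laid with a store of RNA from the mother, and the embryo runs its first divisions on that store. Transcription from the embryo's own genome starts broadly only around the mid-blastula, near the 1000-cell and sphere stages. The cleavage cycles are short and lack gap phases, so nuclear envelopes must be built and taken down quickly, and furrows must divide the blastodisc, which sits on an undivided yolk cell. Genes whose loss in the mother stops these steps in her embryos are called maternal-effect genes.

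The 6 encode different proteins, and those of birc5b, mid1ip1l and racgap1 all act in cell division. Brambleberry, encoded by bmb, is needed in zebrafish for the fusion of karyomeres, the small nuclei that form around single chromosomes in cleavage embryos. Survivin, encoded by birc5b, belongs to the chromosomal passenger complex, which holds Aurora B kinase at the central spindle, and its zebrafish maternal mutant is known as motley. The protein of mid1ip1l links the cortical cytoskeleton to furrow formation and germ plasm, and its zebrafish maternal mutant is known as aura. Trim36 is a ubiquitin ligase of the MID1 class that, in Xenopus, is needed for vegetal microtubules and the dorsal axis. Importin alpha 8, encoded by kpna7, carries proteins with a nuclear localisation signal and is known in mammals as an oocyte and early embryo importin. Racgap1 joins KIF23 in centralspindlin, the complex that bundles spindle microtubules and brings the exchange factor ECT2 to the division site. Gene symbols are spelled here as the name table gives them, which puts some zebrafish genes in capitals.

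Libraries were scaled to between 37762530 reads at 1 cell and 113972795 reads at 4 cells, and 86.22% to 93.8% of these fell in genes. Whole reads were worked back from the RPKM values, so folds below carry exact 95% intervals that cover counting error only. Some libraries stood apart. Of 12720 genes with at least 1 RPKM in 2 or more of the 7 cleavage libraries, 57.1% stood lower at 1 cell than in both adjacent libraries, and 55.6% stood higher at 16 cells than in both. The sperm library held markers of other testis cells. All 9 identifiers matched to 8 testis somatic markers reached 1 RPKM there and summed to 1252 RPKM, against 1 of 9 and 27.3 RPKM in the oocyte. The symbol SOX9 covered more than 1 of these identifiers. Genes of meiosis were also present, SYCP1 among them at 444 RPKM in sperm, against 1.83 RPKM in the oocyte, and the part of these cells in the sperm values below was not tested.

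Checked against the label of maternal gene, 5 of the 6 stood high in the oocyte and racgap1 did not. In the oocyte, mid1ip1l reached 916 RPKM and ranked 50th of all genes, kpna7 reached 896 and ranked 53rd, and bmb, birc5b and trim36 lay at 424, 405 and 400 RPKM and ranked 163rd, 172nd and 173rd. Racgap1 stood at 1.07 RPKM in the oocyte, from 168 reads, and ranked 9839th. It is therefore described here by its name and not as an abundant maternal transcript.

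**Figure D1:**
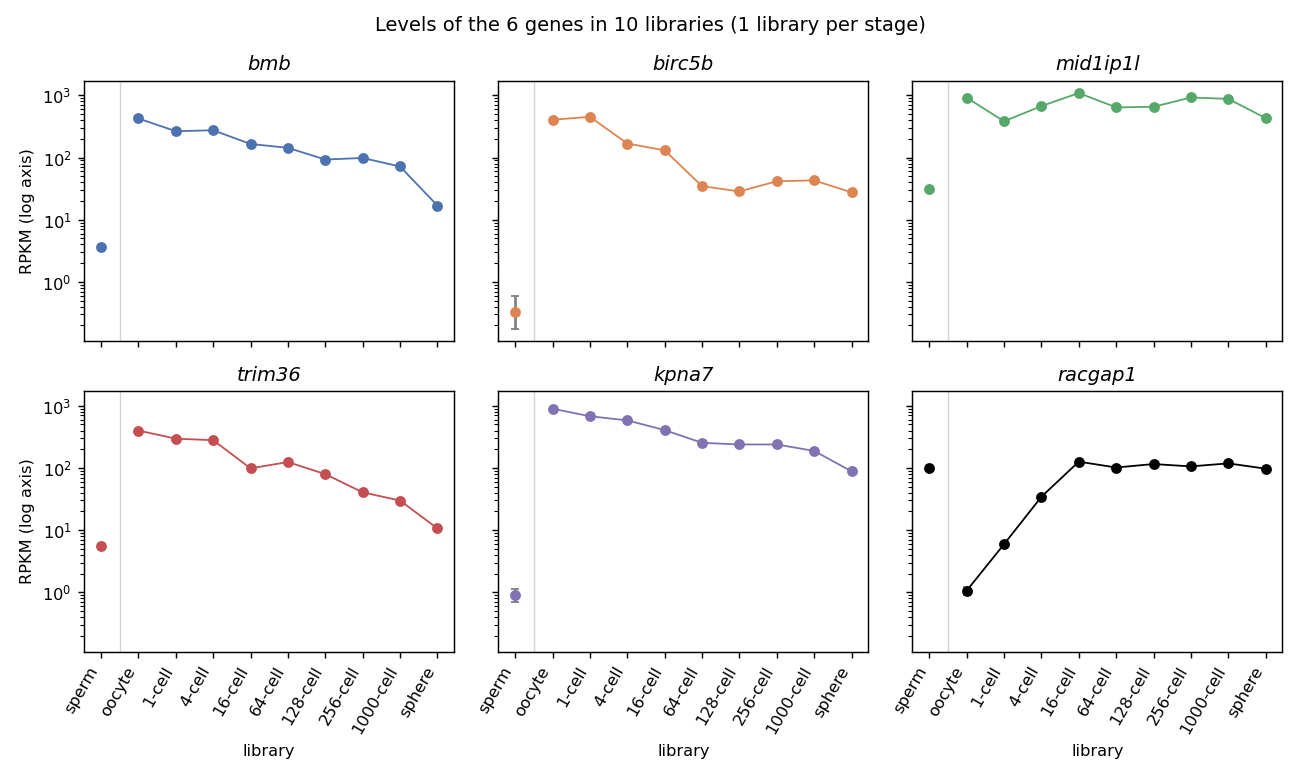
RPKM on a log axis in the 10 libraries for each of the 6 genes; points are single libraries, the line joins oocyte to sphere, and grey bars are 95% counting intervals, which are mostly smaller than the points. Bmb, birc5b, trim36 and kpna7 decline between oocyte and sphere, mid1ip1l stays between 382 and 1087 RPKM in those libraries, and racgap1 climbs to 126 RPKM in the 16-cell library, against 1.07 RPKM in the oocyte.

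Brambleberry RNA (bmb, ENSDARG00000096603) was high in the oocyte and, sperm aside, lowest in sphere embryos. Its level was 3.58 RPKM in sperm, 424 in the oocyte, 265 in the 1-cell, 274 in the 4-cell, 165 in the 16-cell, 143 in the 64-cell, 92.7 in the 128-cell, 98.3 in the 256-cell, 71.7 in the 1000-cell and 16.9 RPKM in the sphere library. The values of neighbouring levels all differed beyond counting error, the 1-cell and 4-cell libraries included. Sphere embryos held 25.1-fold less than the oocyte (24.3 to 25.9). The last step was the largest: sphere embryos held 4.25-fold less bmb than 1000-cell embryos (4.11 to 4.39), a difference of -2.02 in log2(RPKM + 1). Here and below a difference in log2(RPKM + 1) counts as a change at 2 or more in size, which is 4-fold in RPKM + 1, in genes that reach 1 RPKM in one or both of the libraries compared. That change in bmb lies close to the threshold, and it is not called with a pseudocount of 5 (-1.81) or after median ratio scaling of the libraries (-1.96). Only 0.379% of the genes measured had a lower difference, and 0.415% of 13983 genes were called lower in sphere against 1000-cell embryos. None of the other 5 genes was called in this step. They were 1.22-fold (racgap1) to 2.80-fold (trim36) lower in sphere embryos.

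Among other genes of the nuclear envelope and pore, bmb moved with a minority. In the trend over cell number, a line fitted by limma to log2(RPKM + 1) against log2 cell number over the 7 libraries of 1 to 1000 cells, bmb fell by 0.21 per doubling (SE 0.032, limma adjusted p = 0.00185). These p-values treat the scatter of the 7 libraries about the line as the error, since no stage is replicated. Of 12720 genes tested, 9.16% fell and 52.7% rose at an adjusted p under 0.05, and the median slope was 0.12. In the list of envelope and pore genes, 9 of 29 rose and 5 fell, bmb included, with a median slope of -0.0052. The other 4 that fell encode pore subunits: NUP37 fell by 0.26, NUP35 by 0.14, NUP160 by 0.12 and NUP107 by 0.098 per doubling (limma adjusted p 0.00193 to 0.0293). Those that rose included tmpob, a lamina-associated polypeptide gene, with a slope of 0.35, and LBR, the lamin B receptor gene, with a slope of 0.27 (limma adjusted p = 0.00261 and 0.00264). The zebrafish gene lrmp, whose maternal mutant futile cycle fails in pronuclear attachment, rose by 0.12 per doubling (limma adjusted p = 0.0349), near the median of all genes. For lrmp, 1000-cell embryos held 72.8 RPKM, against 28.9 RPKM at 1 cell.

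Survivin RNA from birc5b (ENSDARG00000055655) measured lower from early cleavage on. It stood at 0.33 RPKM in sperm, 405 in the oocyte, 451 in the 1-cell, 168 in the 4-cell, 130 in the 16-cell, 34.7 in the 64-cell, 28.4 in the 128-cell, 41.6 in the 256-cell, 42.9 in the 1000-cell and 27.5 RPKM in the sphere library. The highest value was in the 1-cell embryo and the lowest embryonic value in sphere, and the 64-cell level was already near that of sphere. The 1000-cell and 256-cell levels did not differ beyond counting error, nor did those of the 128-cell and sphere libraries. The 128-cell library held 15.9-fold less than the 1-cell library (15.2 to 16.6), where 2.43% of 12336 genes were called lower and 25.7% higher. Over cell number birc5b fell by 0.38 per doubling (SE 0.067, limma adjusted p = 0.00262). Without the 1-cell library the slope was -0.30 and was no longer called (limma adjusted p = 0.0521).

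The other survivin gene followed a similar course in the embryo but not in sperm. BIRC5 (ENSDARG00000075621), taken here as the paralog birc5a from its symbol, fell by 0.50 per doubling (limma adjusted p = 0.00188). Its level was 370.3 RPKM in the oocyte, 411 in the 1-cell, 12.5 in the 128-cell and 25.02 RPKM in the sphere library. The share of birc5b in the summed RPKM of the pair was 52.2% in the oocyte, 47.7% in the 4-cell, 70.4% in the 256-cell and 52.4% in the sphere library. In sperm that share was 0.21%: 12 reads fell on birc5b and 4946 on BIRC5, or 158 RPKM. The counting behind the table is not stated for reads that fit both genes, so the split between them is uncertain, within what those sperm reads show.

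The chromosomal passenger complex declined except for borealin. Of its 5 genes measured, 4 fell over cell number and 1 rose, beside 9.16% falling and 52.7% rising over all genes. AURKB, the kinase of the complex, fell by 0.48 per doubling (limma adjusted p = 0.00103), with 960.3 RPKM in the oocyte, 878 in the 1-cell, 77.2 in the 128-cell and 64.5 RPKM in the sphere library. The borealin-like gene cdca9 fell by 0.46 per doubling (limma adjusted p = 0.00874), with 392.5 RPKM in the oocyte, 310.5 at the 1-cell stage and 27.2 RPKM at the 4-cell stage. The borealin gene cdca8 rose by 0.38 per doubling (limma adjusted p = 0.00316), with 6.98 RPKM in the oocyte, 6.13 in the 1-cell, 62.9 at 128 cells and 102.7 RPKM at 1000 cells. The gene incenp was not matched. Summed over the 5 genes, 128-cell embryos held 186.6 RPKM, against 2056 RPKM at 1 cell.

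**Figure D2:**
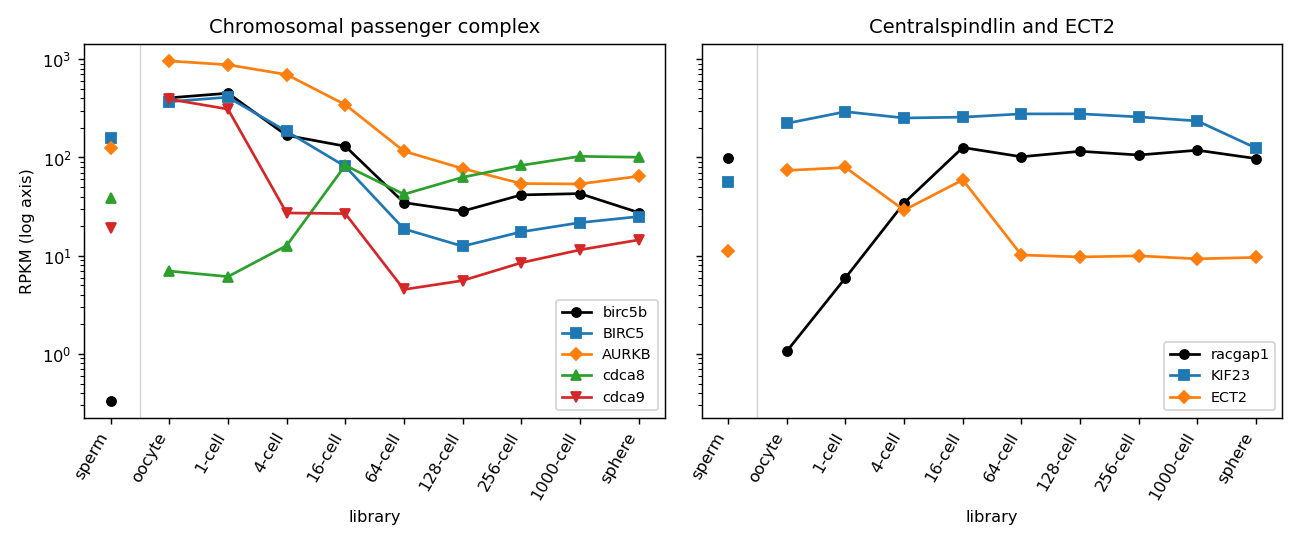
RPKM on a log axis by library for the chromosomal passenger complex (left) and for racgap1, KIF23 and ECT2 (right); points are single libraries, lines join oocyte to sphere, and members are in black. On the left birc5b, BIRC5, AURKB and cdca9 decline while cdca8 climbs; on the right racgap1 climbs to 126 RPKM at 16 cells under a KIF23 level of 222 to 293 RPKM from oocyte to 1000-cell.

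RNA of mid1ip1l (ENSDARG00000018145) stayed high through cleavage. It measured 30.9 RPKM in sperm, 916 in the oocyte, 382 in the 1-cell, 671 in the 4-cell, 1087 in the 16-cell, 639 in the 64-cell, 653 in the 128-cell, 922 in the 256-cell, 876 in the 1000-cell and 430.1 RPKM in the sphere library. The 16-cell library was highest and the 1-cell library lowest from oocyte to sphere, 2.85-fold apart, and the 256-cell and oocyte levels did not differ beyond counting error. Most genes also stood higher at 16 cells and lower at 1 cell than in both adjacent libraries. From the mean of its neighbours mid1ip1l differed by 0.73 at 16 cells and -1.04 at 1 cell in log2. The median size of that gap over genes was 0.63 and 0.40. By rank mid1ip1l was 214th of all genes in the 1-cell, 26th in the 16-cell and 17th in the 1000-cell library. Its slope over cell number was 0.087 (SE 0.045, limma adjusted p = 0.114), so it was not called. The slope rested on single libraries: without the 16-cell library it was 0.10 and called (limma adjusted p = 0.00669), without the 1-cell library it was 0.019 (limma adjusted p = 0.793), and after median ratio scaling it was -0.086 (limma adjusted p = 0.231).

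In the embryo mid1ip1l made up nearly all RNA of its small family up to the 1000-cell stage. Its share of the summed RPKM of mid1ip1l, mid1ip1a and MID1IP1 lay between 99.0% and 99.7% from oocyte to 1000-cell embryo and was 82.2% in sphere embryos. The difference came with mid1ip1a, which stood at 91.3 RPKM in sphere embryos, against 2.68 RPKM in 1000-cell embryos. That gene was among the 4.06% of 13983 genes called higher in sphere. In sperm MID1IP1 led the family with 34.2 RPKM, and mid1ip1l held 47.1% of its RPKM.

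Trim36 RNA (trim36, ENSDARG00000062794) declined furthest between oocyte and sphere among the 6. Its level was 5.55 RPKM in sperm, 400 in the oocyte, 295.5 in the 1-cell, 279.5 in the 4-cell, 98.7 in the 16-cell, 124.5 in the 64-cell, 79.6 in the 128-cell, 40.6 in the 256-cell, 29.9 in the 1000-cell and 10.7 RPKM in the sphere library. Levels dropped at every step but 16-cell to 64-cell, and all neighbouring levels differed beyond counting error. Sphere embryos held 37.4-fold less than the oocyte (36.2 to 38.8). Over cell number trim36 fell by 0.34 per doubling (SE 0.045, limma adjusted p = 0.00133), and it fell in all 7 fits that left out 1 library, by 0.32 to 0.38. From 128 to 1000 cells, a span in which 0.149% of 12749 genes were called in either direction, none of the 6 genes was called. In that span trim36 came nearest, 2.66-fold lower in the 1000-cell than in the 128-cell library (2.59 to 2.72), and 0.0941% of the genes measured had a lower difference.

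None of the related genes of the MID1 class matched its level in the embryo. MID1, MID2, TRIM9 and FSD1, of the same domain class, each stayed under 5 RPKM from oocyte to sphere, and none of them passed the trend test (limma adjusted p 0.0993 to 0.766). The share of trim36 in the summed RPKM of its class was 99.0% in the oocyte, 92.3% in the 64-cell, 76.2% in the 1000-cell and 65.2% in the sphere library. In sperm FSD1, at 6.001 RPKM, stood above trim36.

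Kpna7 RNA (kpna7, ENSDARG00000027169) was lower at each stage of cleavage than at the one before. It measured 0.90 RPKM in sperm, 896 in the oocyte, 678 in the 1-cell, 582 in the 4-cell, 406 in the 16-cell, 254 in the 64-cell, 239 in the 128-cell, 239 in the 256-cell, 188 in the 1000-cell and 88.3 RPKM in the sphere library. Each of the 6 steps from 1 to 1000 cells was downward, and of these the step between 128 and 256 cells was within counting error. Sphere embryos held 10.1-fold less than the oocyte (9.95 to 10.3). Kpna7 fell by 0.20 per doubling (SE 0.029, limma adjusted p = 0.00164), and it fell in all 7 fits that left out 1 library, by 0.19 to 0.22.

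Of the importin alpha genes, kpna7 was highest from oocyte to 1000-cell embryo and KPNA4 was highest in sphere embryos. The share of kpna7 in the summed RPKM of the 7 importin alpha genes was 0.36% in sperm, 64.6% in the oocyte, 59.4% in the 1-cell, 63.4% in the 4-cell, 46.2% in the 16-cell, 43.2% in the 64-cell, 43.3% in the 128-cell, 45.3% in the 256-cell, 40.8% in the 1000-cell and 23.5% in the sphere library. KPNA2, known in animals for its high level in dividing cells, was next in the oocyte and fell by 0.31 per doubling (limma adjusted p = 0.00134), and sphere embryos held 44.7 RPKM, against 472 RPKM in the oocyte. KPNA4 rose by 0.31 per doubling (limma adjusted p = 0.00723). It held 11.1 RPKM and 0.80% of the family in the oocyte, 206 RPKM and 37.3% in the 128-cell, and 212 RPKM and 56.3% in the sphere library. KPNA4 and kpna7 were nearest to each other in the 1000-cell library, at 182 and 188 RPKM. KPNA6 and KPNA1 also rose, by 0.25 and 0.22 per doubling, from low levels (limma adjusted p = 0.00202 and 0.00309). Summed RPKM of the family was 1386 in the oocyte, 552 in the 128-cell and 376 in the sphere library.

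**Figure D3:**
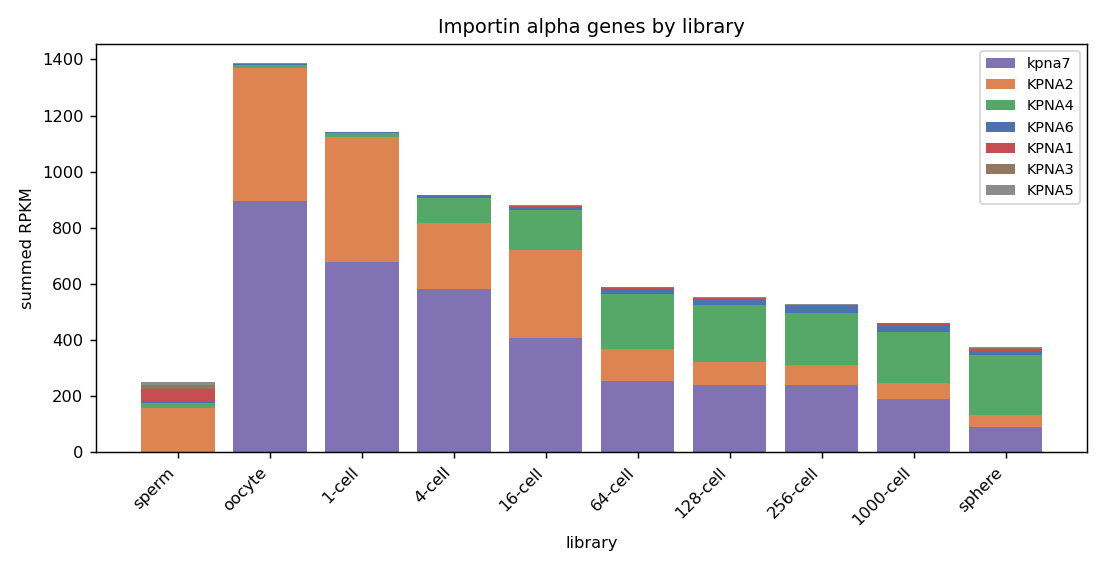
Stacked bars of RPKM for the 7 importin alpha genes in each of the 10 libraries, starting at 0. The summed level is 376 RPKM in sphere, against 1386 RPKM in the oocyte; KPNA4 holds 56.3% and kpna7 23.5% in sphere, and sperm holds mostly KPNA2.

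In the list of importins, exportins and the Ran cycle, 16 of 27 genes rose and 3 fell, with a median slope of 0.19. That share of rising genes is near the 52.7% over all genes, of which 9.16% fell and whose median slope was 0.12. The 3 that fell were kpna7, KPNA2 and CSE1L, which encodes the exportin that returns importin alpha to the cytoplasm. CSE1L fell by 0.51 per doubling (limma adjusted p = 0.00243), and 64-cell embryos held 4.395 RPKM, against 193 RPKM at 1 cell. RAN, the GTPase that drives transport, had a slope of -0.040 and was not called (limma adjusted p = 0.244), at 327 to 500 RPKM in all 10 libraries. RCC1, its nuclear exchange factor, had a slope of -0.11 (limma adjusted p = 0.116), and sperm held 12.9 RPKM, against 993 RPKM in the oocyte.

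Racgap1 RNA (racgap1, ENSDARG00000015460) went the opposite way to the 4 that fell. It measured 99.3 RPKM in sperm, 1.07 in the oocyte, 5.95 in the 1-cell, 34.4 in the 4-cell, 126 in the 16-cell, 101.7 in the 64-cell, 116 in the 128-cell, 106 in the 256-cell, 118.5 in the 1000-cell and 97.4 RPKM in the sphere library. The oocyte was lowest, the level climbed over the 1-cell, 4-cell and 16-cell libraries and then stayed between 97.4 and 126 RPKM. From the mean of its neighbours racgap1 differed by 1.08 at 16 cells and -0.30 at 1 cell in log2. The median size of that gap over genes was 0.63 and 0.40. Sperm and sphere did not differ beyond counting error. The 128-cell library held 19.4-fold more than the 1-cell library (18.0 to 21.0). Racgap1 was among the 25.7% of 12336 genes called higher there, and 98.5% of the genes measured had a lower difference. After median ratio scaling its difference was 2.49 in log2(RPKM + 1), against 4.07 as deposited. The slope over cell number was 0.36 (SE 0.088, limma adjusted p = 0.0073). It rested on the 1-cell library, without which it was 0.17 and not called (limma adjusted p = 0.121), while without the 16-cell library it was called. The kit captures RNA with a poly(A) tail, so a longer tail on stored RNA and more RNA cannot be told apart in these values. For the genes that fell, a shorter tail and less RNA cannot be told apart either.

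**Figure D4:**
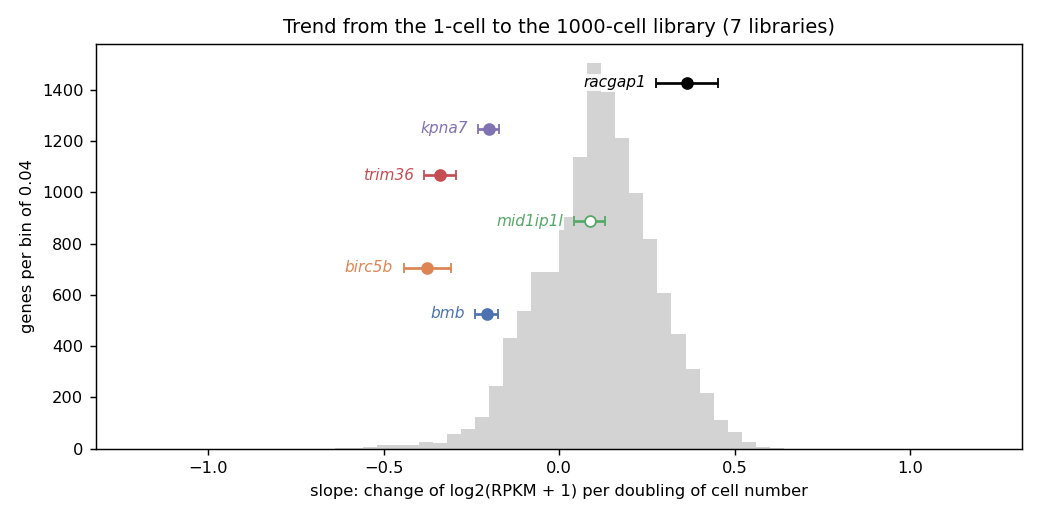
Grey bars count the 12720 genes by their slope of log2(RPKM + 1) per doubling of cell number over the 7 libraries of 1 to 1000 cells; points are the 6 genes with the SE of the slope, filled where called, and their height has no meaning. Birc5b, trim36, bmb and kpna7 lie at -0.38 to -0.20, mid1ip1l at 0.087 and racgap1 at 0.36, beside a median of 0.12.

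Its partner in centralspindlin did not share this course. KIF23 stood at 222 RPKM in the oocyte, 292.5 in the 1-cell, 257 in the 16-cell, 278 in the 128-cell, 235 in the 1000-cell and 125 RPKM in the sphere library, and its slope was -0.016 (limma adjusted p = 0.621). The ratio of KIF23 to racgap1 RPKM was 209 in the oocyte (179 to 244), 49.2 in the 1-cell, 7.33 in the 4-cell, 2.04 in the 16-cell and 1.28 in the sphere library. In sperm it was 0.57, with racgap1 the higher of the pair. ECT2 fell by 0.32 per doubling (limma adjusted p = 0.00421), and 128-cell embryos held 9.71 RPKM, against 79.1 RPKM at 1 cell. Of 12 genes of the central spindle and midbody, 4 rose and 6 fell, with a median slope of -0.061, beside 52.7% rising and 9.16% falling over all genes. Beside racgap1 the 3 that rose were KIF14, a kinesin of the midbody, with 0.29, PRC1, a microtubule bundler, with 0.20, and kif20bb with 0.15 per doubling (limma adjusted p 0.00196 to 0.0117). The mitotic kinase gene plk1 fell by 0.26 per doubling and the spindle motor gene kif11 by 0.49 (limma adjusted p = 0.00129 for each).

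In a list of 10 other identifiers of zebrafish maternal-effect genes, 6 rose and 2 fell, with a median slope of 0.13. That is near the 52.7% rising and the median of 0.12 over all genes, of which 9.16% fell. AURKB, which fell, and lrmp, which rose, are in this list as well as in those above, and the symbol PTBP1 covers 2 of its identifiers. Of the 10, buc, which organises germ plasm, rose by 0.44, and SASS6, a centriole gene, fell by 0.19 per doubling (limma adjusted p = 0.00609 and 0.00563).

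Sperm and oocyte were separated by all 6 genes. Against the oocyte, 5 were called lower in sperm, where 9.08% of 17364 genes were, and racgap1 was called higher, where 31.5% were. Birc5b was 1209-fold lower in sperm (692 to 2341), kpna7 997-fold lower (778 to 1301), bmb 118.5-fold lower (107.9 to 130.3), trim36 72.1-fold lower (67.4 to 77.2) and mid1ip1l 29.6-fold lower (28.1 to 31.2). Racgap1 was 93.2-fold higher in sperm (80.1 to 109). Of all genes measured, 0.0288% had a lower difference than kpna7, and 98.1% had a lower one than racgap1. In samples of this kind, fewer cells of a type and less RNA per cell cannot be told apart.

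Between oocyte and 1-cell embryo none of the 6 was called, beside 3.4% of 10373 genes called lower and 1.06% called higher. Birc5b was 1.12-fold higher, while kpna7 was 1.32-fold, trim36 1.35-fold, bmb 1.60-fold and mid1ip1l 2.40-fold lower in the 1-cell embryo than in the oocyte. Racgap1 was 5.58-fold higher (4.70 to 6.66) but from low levels, with a difference of 1.75 in log2(RPKM + 1). It passed 2 with a pseudocount of 0.1 (2.38), after median ratio scaling (2.68) and when 4-cell embryos stood in for those of 1 cell (4.10). Median ratio scaling moved the median difference of all genes to 0.33, against -0.30 as deposited, and bmb, trim36 and kpna7 then stood higher in the 1-cell embryo. Of 7 markers of epithelium or enveloping layer, the 4 keratin genes krt4, krt5, krt8 and krt91 were called lower in the 1-cell embryo, at 0.064 to 0.411 RPKM, against 37.5 to 116.5 RPKM in the oocyte, and their part in the comparison was not tested. Another gene of that list, epcam, was higher instead, at 3809 RPKM in the 1-cell embryo, against 2201 RPKM in the oocyte, and the list summed to 3810 RPKM, against 2469 RPKM.

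**Figure D5:**
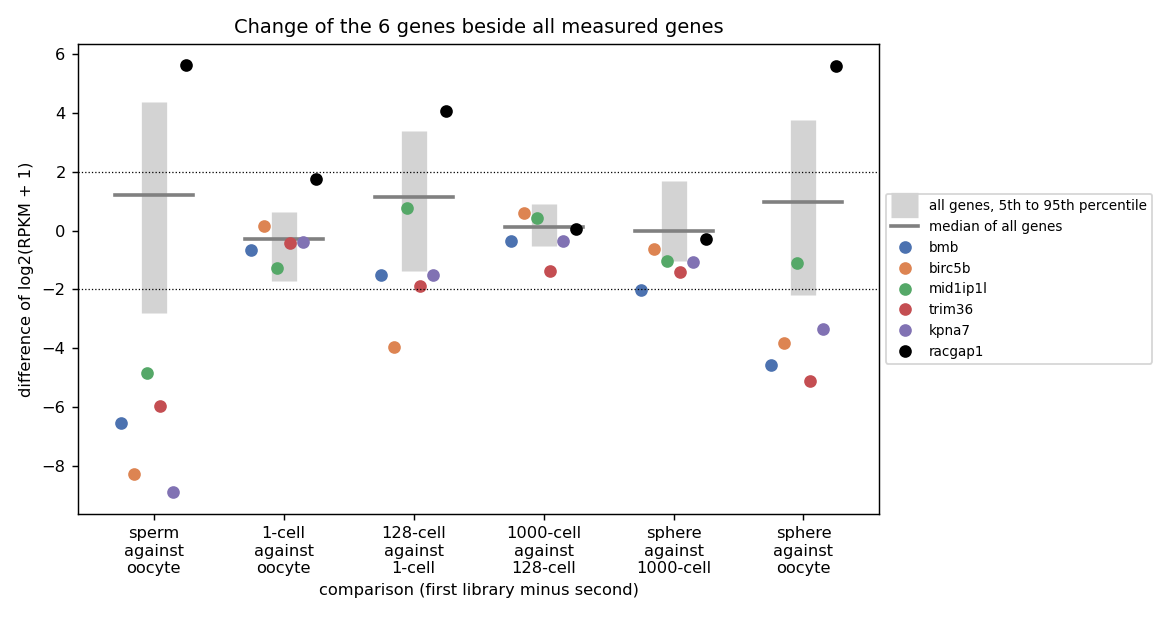
Difference of log2(RPKM + 1), first library minus second, for the 6 genes in the 6 comparisons; the grey bar spans the 5th to 95th percentile of all genes measured, the grey line is their median and dotted lines mark 2 and -2. All 6 genes pass the dotted lines in sperm against oocyte, 5 in sphere against oocyte, 2 in 128-cell against 1-cell, 1 in sphere against 1000-cell and 0 in the other 2.

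Across the whole span, sphere embryos differed from the oocyte in 5 of the 6. Bmb, birc5b, trim36 and kpna7 were called lower, where 5.95% of 14367 genes were, and racgap1 was called higher, where 25.1% were. Birc5b was 14.7-fold lower (14.04 to 15.4) and racgap1 91.4-fold higher (78.6 to 107) in sphere embryos. Mid1ip1l was 2.13-fold lower (2.104 to 2.156), with a difference of -1.09 that did not pass; after median ratio scaling it was -2.11 and all 6 genes were called. In the same sphere library, 4 of 5 zygotic marker genes reached 1 RPKM, with a sum of 197 RPKM, against 14.7 RPKM in the 1000-cell library. Between the 1-cell and 128-cell libraries birc5b and racgap1 were the 2 called, while bmb, kpna7 and trim36 were 2.86-fold, 2.84-fold and 3.72-fold lower in the 128-cell library and mid1ip1l was 1.71-fold higher. After median ratio scaling bmb, trim36 and kpna7 were also called lower, mid1ip1l stood lower instead of higher, and all genes moved with them: 3174 genes were called higher and 300 lower as deposited, against 960 and 2054 after scaling.

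Likeness to other genes was measured as the root mean square difference of log2(RPKM + 1) over the 10 libraries, each profile centred on its mean, among 9259 genes with a unique symbol and at least 5 RPKM in 1 library. Without sperm, over 9 libraries, bmb, birc5b, mid1ip1l and racgap1 shared 0 of the 3 genes named here for each, kpna7 shared 1 and trim36 shared 2. For bmb the nearest were DNMT1, the maintenance DNA methyltransferase gene (0.37), KIFC3, a minus-end kinesin gene (0.41), and zgc:113425 (0.45). For trim36 they were CPOX, of haem synthesis (0.34), dip2cb (0.35) and again DNMT1 (0.38). For birc5b they were si:ch73-303b9.1 (0.36), ppt2a.3 (0.49) and ctss2.1 (0.51), and for kpna7 the claudin gene cldng (0.36), the helicase gene PIF1 (0.39) and thy1 (0.44). For mid1ip1l they were wu:fi09b08 (0.31), si:ch211-286b5.4 (0.33) and zgc:171781 (0.38). For racgap1 they were TXLNA (0.48), RTCA (0.50) and cxxc1b (0.51). Among the 6 themselves bmb and trim36 were closest over 10 libraries, 0.56 apart, with 9 of 9258 other genes nearer to bmb than trim36 was. Without sperm bmb and kpna7 were closest, 0.39 apart, and bmb and trim36 were 0.50 apart. Over all 10 libraries racgap1 lay 2.54 to 3.89 from each of the others.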

How the data were processed

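TRIzol extracts of total RNA went into TruSeq RNA v2 libraries, a kit that selects polyadenylated RNA, and a HiSeq2000 read 50 bp from one end, per the labels' protocols. The authors deposited RPKM values in 1 table with 1 column per library, neither log-transformed nor given a pseudocount. TopHat2 2.0.9 and the genome build Zv9 are named, per the submitters' processing notes. Not given in the sources used here: counting tool, annotation, strand setting, and how reads with several matches were treated. Genome coordinates and sequences are not used here.

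Reads were worked back from the ratios of RPKM values within each gene. All 26495 genes above 0 in at least 2 libraries were solved. Of all values above 0 in the expression table, 99.24% came out whole within 0.02 reads, with genes not solved counted as not whole. In a simulated table of 3000 genes, 99.93% of solved genes above 0 in at least 9 libraries had the right reads in every library. Folds have exact 95% Clopper-Pearson intervals on these reads, for counting error only. Reads were not used for a count test because no stage has a second library.

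Differences are of log2(RPKM + 1), which understates the change of low genes, counted at 2 or more in genes that reach 1 RPKM in one or both of the libraries compared. The trend was fitted with limma 3.58.1 in R 4.3.3 (empirical Bayes with an intensity trend, Benjamini-Hochberg over 12720 genes, 5 residual degrees of freedom). It was tried on simulated data with independent noise of capped size for each gene. That simulation held no shifts of whole libraries, so it does not cover the effect of such shifts on these p-values. Other pseudocounts, filters, median ratio scaling and left-out libraries were tried. The labels give no batch or date. The 6 genes, the 17 gene lists and the tests were chosen with earlier results of these data known; 1 of these lists is not reported here. Named genes are the 6, their paralogs and complex partners, listed genes with large changes, and the 3 nearest profiles of each; other genes named from the trend lists were picked after their values were seen. Symbols came from a table that named 20901 gene identifiers, of which 3270 share a symbol.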

Additional observations from a re-analysis of the deposited data

How the results depend on the processing

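No paired analysis was possible because every stage has 1 library. Counts of the 6 genes whose log2(RPKM + 1) differed by 2 or more depended on these settings. For 1-cell against oocyte the count was 0, and it was 1 with a pseudocount of 0.1, 1 after median ratio scaling and 1 with the 4-cell in place of the 1-cell library, racgap1 each time. For 128-cell against 1-cell it was 2, and it was 5 after median ratio scaling and 1 with the 4-cell in place of the 1-cell library. For sphere against 1000-cell it was 1, and 0 with a pseudocount of 5 and after median ratio scaling. Counts for sperm against oocyte, 1000-cell against 128-cell and sphere against oocyte stayed within 1.5 times of 6, 0 and 5 under every setting tried, though the last was 6 after median ratio scaling. In the trend, leaving out each library gave 3 to 6 of the 6 genes called, against 5, and 2015 to 9909 of all genes called, against 7864. The lowest counts came without the 1-cell library and the highest without the 16-cell library. The slope of mid1ip1l turned to -0.086 after median ratio scaling.

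Median ratio scaling also moved the split of all genes, given as higher and lower: 3233 and 2924 in sperm against oocyte, where 5463 and 1577 were called as deposited; 205 and 384 in 1-cell against oocyte, where 110 and 353 were; 2056 and 2048 in sphere against oocyte, where 3603 and 855 were; and 3362 and 3682 in the trend, where 6699 and 1165 were. Of 286 alternatives for single values, 189 moved by less than the counting interval or kept their call, 93 moved by more, 1 reversed, 1 passed and 2 no longer passed the threshold. The reversed and passed classes of this tally do not hold every change of sign or call. Median ratio scaling changed the sign of the difference for 3 of the 6 genes in 1-cell against oocyte. It did so for 1 gene in 128-cell against 1-cell and for 1 in 1000-cell against 128-cell. Genes that newly passed 2 after scaling are given above. By reads in place of RPKM, kpna7 held 62.1% of importin alpha in the oocyte and 12.9% in sphere. Depth limits birc5b in sperm, with 12 reads.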
